A study of Mus musculus with 6 samples.

Results

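Matricellular and fibrillar glycoproteins of the extracellular matrix were followed through 10 listed genes, of which 8 were measured, out of 18820 genes that had a probe set of their own on the array. The genes were chosen by symbol, through the array's annotation, and each of the 8 was read by 1 probe set. They are *Tnc*, *Srpx2*, *Sparc*, *Postn*, *Tgfbi*, *Thbs1*, *Thbs2* and *Fn1*, while *Fbn1* and *Spp1* were not analysed here. The cells were EpRas cells, a line derived from mouse mammary EpH4 epithelium (BALB/c background) that stably overexpresses the Ha-Ras oncogene, so that the long-term EMT cells and their controls both carried it. Long-term EMT cells had received 2 ng/ml of TGF-β1 over 14 days (3 arrays), and control cells had been left without it (3 arrays). Since all samples come from 1 line and the labels number the replicates without saying what they are, every p-value reflects the spread of these samples alone, which may be technical.

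Fibrillar glycoproteins such as fibronectin build the scaffold that cells pull on through integrins. Matricellular proteins are secreted into the same matrix but serve mainly as signals, binding integrins, collagens, proteases and growth factors. Several of them are scarce in resting adult epithelium and abundant in wounds and tumor stroma, and TGF-β is a classical inducer of many. In bulk RNA, a change in the number of cells that use a gene and a change in RNA per cell cannot be told apart.

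Values are log2 intensities as deposited by the authors, and a gene passed the test when limma gave an adjusted p under 0.05 over all 35556 probe sets together with a fold above 1.5. The level of an unused gene, called background, was 4.47, the 95th percentile of 1006 olfactory receptor probe sets. Array medians lay between 5.36 and 5.40. Control replicate 1 stood apart from its group, with r = 0.987 and 0.984 to the other controls across probe sets, against 0.995 between those. It was also the control with the highest summed level of each marker list below. Its part in the results was not tested, and values without it are given where they change a call or move a value by over 1.5 times. The epithelial label was checked on 8 mammary epithelial markers. All 8 averaged above background in control cells, but *Krt5* and *Krt19* only by little, at 4.61 and 5.10. The keratin gene *Krt8* was at 12.79 in each group, while 4 of the 8, *Cdh1*, *Epcam*, *Cldn7* and *Krt14*, fell in long-term EMT cells. *Cdh1* was at background there, at 4.48 on average, against 9.57 in control cells. The calls of *Epcam* and *Krt14* were lost without long-term EMT replicate 2, long-term EMT replicate 3 or control replicate 2. Of 8 fibroblast markers 0 passed the test, with log2 fold changes between -1.76 and 0.62 and a median of 0.03. Their summed level on the log2 scale was 9.61 to 9.99 in long-term EMT cells and 10.38 to 10.90 in control cells. These sums follow the brightest gene most, *Pdgfrb*, at means of 8.61 in long-term EMT and 9.92 in control cells. At an unadjusted p under 0.05 by limma, 1 of the 8 was higher and 2 were lower in long-term EMT cells. The higher one was *Col1a1*, at means of 7.24 in long-term EMT and 6.62 in control cells (log2 fold change 0.62, adjusted p = 0.137 by limma). On average 6 of the 8 were above background in long-term EMT cells and 7 in control cells, and *Lum* stayed below it on every array. *Dcn* gave the lowest log2 fold change of the list, -1.76, which was -0.95 without control replicate 1. Of 7 macrophage markers 0 passed (0 higher and 2 lower at an unadjusted p under 0.05). Their sums were 9.54 to 10.17 in long-term EMT cells and 9.68 to 11.11 in control cells. On average 4 of the 7 were above background in each group, while *Adgre1* and *Itgam* were below it throughout. *Cd68* was well above it, at means of 8.92 in long-term EMT and 8.65 in control cells, as was *Cd14*, at 8.46 and 9.58. *Cd14* had the lowest log2 fold change of this list, -1.12, which was -0.63 without control replicate 1. Of 5 endothelial markers 0 passed at either level, with sums of 6.63 to 6.88 in long-term EMT cells and 6.75 to 7.02 in control cells, and 4 of them were at or below background on every array. Marker genes are named here after their values were seen.

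The 3 genes that rose are shown first by their upstream sequence, because the findings turn on them. RefSeq start sites were matched for 6 of the 8 genes (build GRCm38.p6), and for each the 250 bases before the start that lies farthest upstream in the promoter table were searched. The stretches of the 3 genes that rose are printed 5′ to 3′ on the strand of the gene. *Tnc* is on the minus strand (chr4:64047016-64047265), *Srpx2* on the plus strand (chrX:133908175-133908424) and *Sparc* on the minus strand (chr11:55420081-55420330). The annotated *Srpx2* gene begins at position 133908416, so the last bases of its stretch lie inside the gene. Capitals mark matches, on either strand, to 5 short motifs. TATAAA is the motif of the TATA box, a core promoter element that helps to position the polymerase. TGANTCA is the site of the AP-1 factors Fos and Jun. CAGAC is the core bound by Smad proteins, the mediators of TGF-β signals. AGCCAGACA is their longer element, which holds the core within it. CATTCC is bound by TEAD factors.
Tnc: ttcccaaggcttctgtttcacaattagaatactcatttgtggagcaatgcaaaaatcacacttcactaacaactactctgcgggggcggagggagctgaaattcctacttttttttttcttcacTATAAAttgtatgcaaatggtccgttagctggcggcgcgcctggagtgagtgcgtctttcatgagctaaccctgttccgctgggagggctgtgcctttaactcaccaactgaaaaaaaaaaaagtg
Srpx2: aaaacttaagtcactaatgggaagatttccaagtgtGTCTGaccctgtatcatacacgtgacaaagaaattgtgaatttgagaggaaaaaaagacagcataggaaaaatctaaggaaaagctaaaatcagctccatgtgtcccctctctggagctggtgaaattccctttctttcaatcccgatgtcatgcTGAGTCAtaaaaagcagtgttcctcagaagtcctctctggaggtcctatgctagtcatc
Sparc: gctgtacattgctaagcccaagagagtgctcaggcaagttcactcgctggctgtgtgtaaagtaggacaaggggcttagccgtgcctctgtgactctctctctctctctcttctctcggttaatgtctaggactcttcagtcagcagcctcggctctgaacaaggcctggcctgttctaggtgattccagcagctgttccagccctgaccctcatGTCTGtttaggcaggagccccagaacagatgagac
The *Tnc* stretch held TATAAA, 126 to 121 bases before the start, and no other of the 5. The *Srpx2* stretch held a TGANTCA match 59 to 53 bases before the start and 1 CAGAC match, and the *Sparc* stretch 1 CAGAC match, 35 to 31 bases before it. Among the genes that did not pass, *Postn* had 1 CAGAC match, and *Thbs2* and *Tgfbi* had 2 each. *Thbs2* also held TATAAA, on the opposite strand and at the same distance from the start as in *Tnc*. Across all 32851 promoters of the table, stretches of this length held CAGAC in 42.2%, TATAAA in 12.4%, CATTCC in 12.6%, TGANTCA in 6.75% and AGCCAGACA in 0.301%. These are letter matches, and nothing was measured of binding. Whether a match acts at its distance from the start was not tested.

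In long-term EMT cells 3 of the 8 genes rose, *Srpx2*, *Tnc* and *Sparc*, and 0 fell. For comparison, 0.993% of all probe sets, those without a gene symbol included, were higher and 0.928% were lower by the same rule. The listed genes had been chosen with earlier results of these data known, so these shares are given for scale only. The same 3 genes were those with an unadjusted p under 0.05 by limma, and 0 genes were lower at that level. All long-term EMT arrays lay above all control arrays for these 3 genes, a pattern shown by 10.5% of all probe sets, and for 0 of the 8 did they lie below, as for 8.68% of all. The 8 genes spread from a log2 fold change of -0.20 for *Thbs1* to 3.93 for *Srpx2*, with a median of 0.29 beside 0.02 over all genes. That median was 0.18 without control replicate 3 and 0.40 without control replicate 1.

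**Figure D1:**
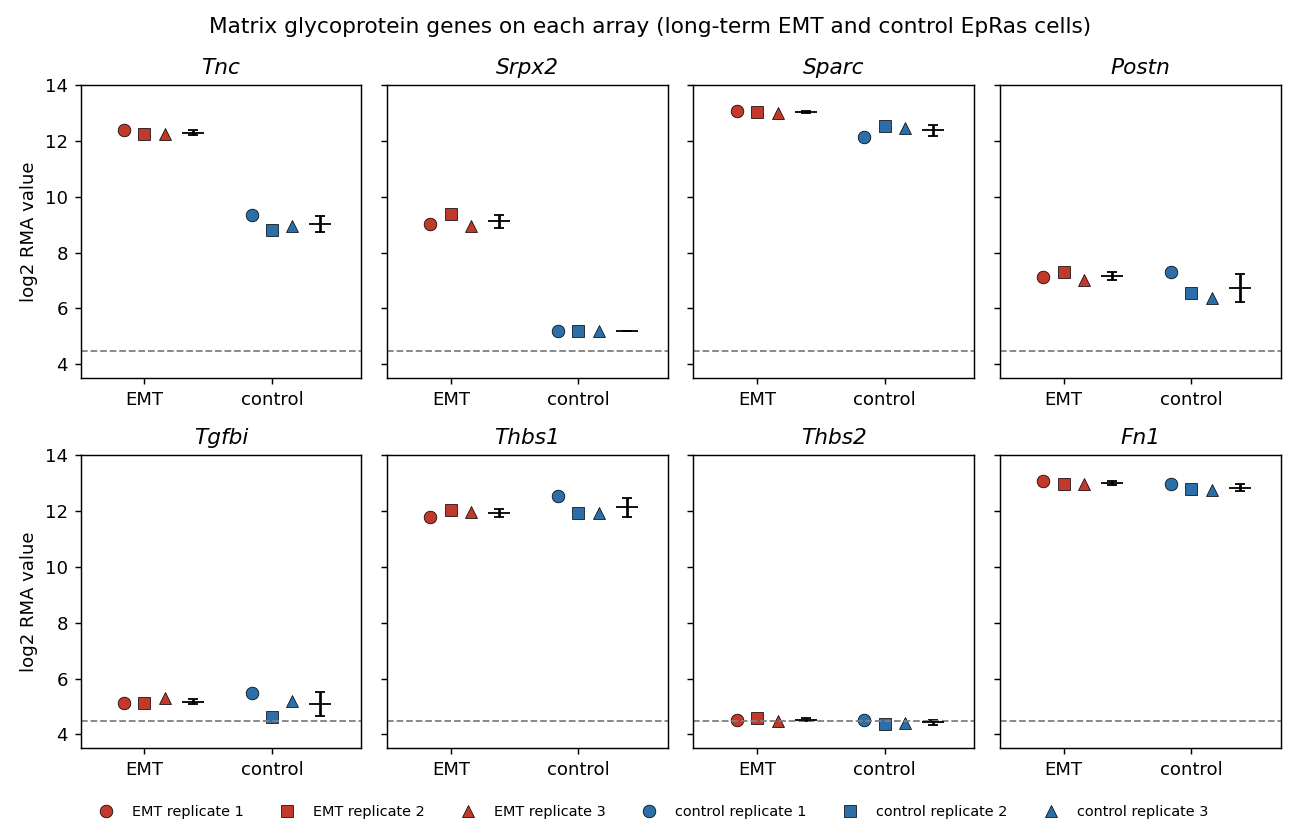
Log2 RMA values of the 8 matrix glycoprotein genes on each array, long-term EMT (red) left of control (blue), with the symbol giving the replicate number, the black bar the mean and SD of 3 arrays, and the dashed line the background of 4.47. The groups are apart for *Tnc*, *Srpx2* and *Sparc*, and overlap for the other 5 genes.

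*Srpx2* encodes a secreted protein with sushi repeats, whose human counterpart is a ligand of the urokinase receptor. It measured 9.02, 9.39 and 8.94 in long-term EMT cells, against 5.19, 5.19 and 5.18 in control cells. The controls were nearly identical and lay 0.71 above background, and the lowest long-term EMT array was far above them. The gene was 15.2-fold higher, or 3.93 ± 0.13 as log2 fold change ± standard error (adjusted p = 0.000706), which placed it at rank 2 of 18820 genes by log2 fold change. Leaving out any 1 array kept the call, with values between 3.79 and 4.02. Raising the background to the 99th percentile of olfactory receptors, 5.09, still left the control values above it, but close to it. The size of the fold therefore rests on weak control signals.

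*Tnc* encodes tenascin-C, a large matricellular glycoprotein that loosens the grip of cells on fibronectin and is deposited in wounds and in the stroma of many tumors. It gave 12.40, 12.25 and 12.23 in long-term EMT cells and 9.35, 8.79 and 8.94 in control cells. The gene was thus already well above background without TGF-β1, by 4.55, and control replicate 1 was the highest control. It was 9.62-fold higher in long-term EMT cells, or 3.27 ± 0.15 on the same scale (adjusted p = 0.00120), rank 8 of 18820. It passed in each of 6 fits with 1 array left out, at 3.15 to 3.43.

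The changes of *Tnc* and *Srpx2* were also set against each other. On each array the *Tnc* value minus the *Srpx2* value was 3.38, 2.86 and 3.29 in long-term EMT cells and 4.16, 3.60 and 3.76 in control cells. The difference was smaller on every long-term EMT array, by 0.66 on average. An exact permutation test, two-sided, gave p = 0.1, the smallest that 3 arrays against 3 allow (adjusted p = 0.15 over 3 pairs of genes), so the test could not reach 0.05 and an unequal change was not shown. The *Srpx2* controls were also close to background.

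*Sparc* encodes osteonectin, a collagen- and calcium-binding matricellular protein that lowers cell adhesion and steers collagen assembly. Its values were 13.05, 13.04 and 12.99 in long-term EMT cells and 12.14, 12.52 and 12.46 in control cells. The gene was among the bright signals in both groups, and the lowest control array, replicate 1, lay 0.35 below the mean of the other controls. It was 1.57-fold higher in long-term EMT cells, or 0.65 ± 0.12 on the log2 scale (adjusted p = 0.0496). This call was a narrow one and held in 0 of 6 fits with 1 array left out. The value was 0.54 without control replicate 1, under the fold of 1.5, with an adjusted p of 0.0299. In the other 5 such fits it was 0.64 to 0.73, with adjusted p between 0.0938 and 0.200, and with arrays set to equal medians it was 0.62 with an adjusted p of 0.0642.

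**Figure D2:**
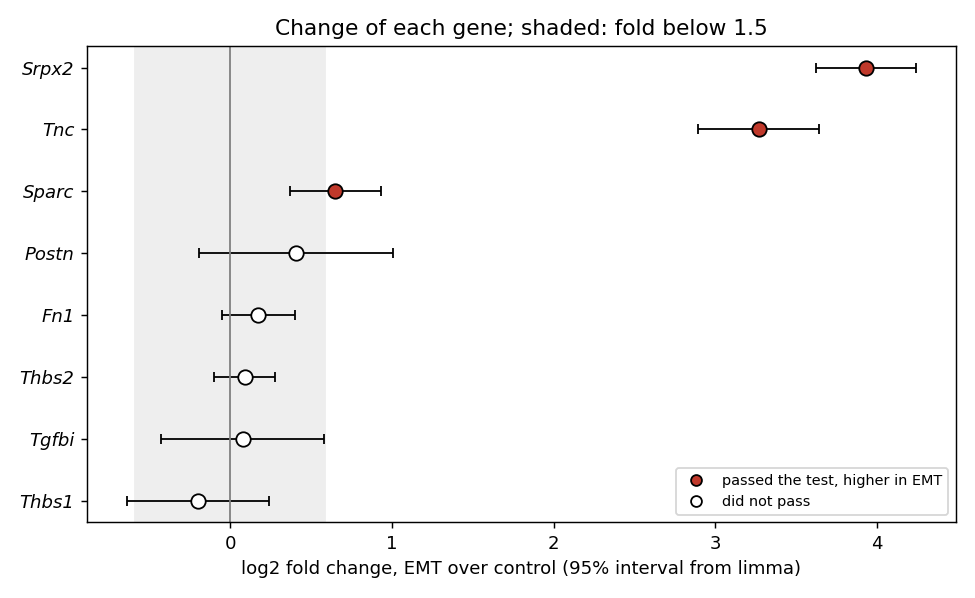
Log2 fold change of each gene in long-term EMT over control cells, with the 95% interval from limma (not adjusted for multiple tests). Filled points passed the test, and the shaded band marks folds below 1.5. The intervals of *Srpx2* and *Tnc* lie far outside the band, that of *Sparc* crosses its edge, and those of the other 5 genes include 0.

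*Postn* and *Tgfbi* encode periostin and TGFBI (βig-h3), 2 secreted proteins built from fasciclin domains that bind integrins and collagens. *TGFBI* was first isolated as a TGF-β-induced transcript in a human carcinoma line. *Postn* measured 7.13, 7.31 and 7.02 in long-term EMT cells and 7.31, 6.54 and 6.37 in control cells. The long-term EMT arrays were close together, while control replicate 1 reached their top and lay 0.85 above the mean of the other controls. With all arrays *Postn* did not pass (log2 fold change 0.41, 95% interval -0.19 to 1.01, adjusted p = 0.571). Without control replicate 1 the value was 0.70 and it passed (adjusted p = 0.0439), while without control replicate 3 it was 0.23.

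*Tgfbi* showed 5.12, 5.11 and 5.29 in long-term EMT cells and 5.47, 4.64 and 5.18 in control cells. These signals were weak, 0.70 and 0.62 above background on average in long-term EMT and control cells, and the controls enclosed the long-term EMT arrays. The log2 fold change was 0.08 (95% interval -0.43 to 0.58, adjusted p = 0.929). Without control replicate 1 it was 0.26, and without control replicate 2 the direction turned, to -0.15. The *Postn* value minus the *Tgfbi* value was 0.34 higher in long-term EMT cells, at 2.01, 2.20 and 1.73, against 1.84, 1.90 and 1.19 in control cells. The groups overlapped, and the exact permutation test, two-sided, gave p = 0.4.

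*Thbs1* encodes thrombospondin-1, which can activate latent TGF-β and restrains angiogenesis. It gave 11.77, 12.04 and 11.95 in long-term EMT cells and 12.52, 11.91 and 11.94 in control cells. Only control replicate 1 departed from the rest, 0.59 above the mean of the other controls. The log2 fold change was -0.20 (95% interval -0.64 to 0.24, adjusted p = 0.735) and -0.01 without control replicate 1. The gene was strongly expressed in either state.

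Its paralog *Thbs2*, thrombospondin-2, was at background in both states, with 4.53, 4.57 and 4.48 in long-term EMT cells and 4.53, 4.36 and 4.42 in control cells, and no fold is given for it. On this array the pair therefore differed in detection, one member bright and the other at the level of olfactory receptors. Their difference, the other of the 3 pairs, is not given for that reason.

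*Fn1*, fibronectin, is the fibrillar glycoprotein of the set and a customary marker of mesenchymal cells. It measured 13.07, 12.98 and 12.96 in long-term EMT cells and 12.98, 12.77 and 12.74 in control cells. These were bright signals in both groups, and control replicate 1 equalled long-term EMT replicate 2. The log2 fold change was 0.17 with a 95% interval of -0.05 to 0.40 (adjusted p = 0.516). That interval, from the spread of these samples alone, lay within a fold of 1.5 in either direction. Fits that left out 1 array gave 0.13 to 0.25. Splice forms of fibronectin were not analysed here.

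**Figure D3:**
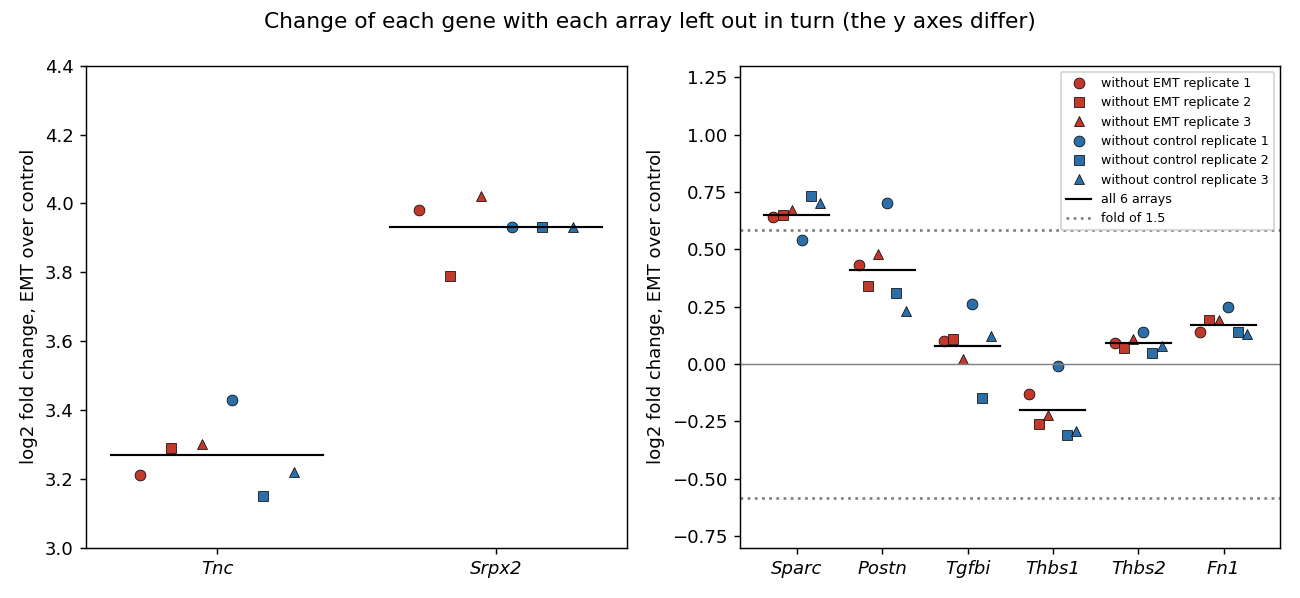
Log2 fold change of each gene after leaving out 1 array at a time (red, a long-term EMT array; blue, a control array), with the value from all 6 arrays as a black line and dotted lines at a fold of 1.5. The y axes of the panels differ. *Tnc* stayed at 3.15 or above and *Srpx2* at 3.79 or above, *Sparc* and *Postn* crossed the dotted line when control replicate 1 was left out, and *Tgfbi* changed sign without control replicate 2.

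Relatives of the 10 listed genes were taken by family, and 12 of 21 averaged above background in long-term EMT cells and 10 in control cells. They were tenascin, thrombospondin, SPARC-like, sushi-repeat, fibrillin, fasciclin and bone sialoprotein relatives. Of these 21, 1 rose, 0 fell and 20 did not pass, with a median log2 fold change of 0.06. At an unadjusted p under 0.05 limma had 3 higher and 1 lower. The exception was *Stab1*, a scavenger receptor with fasciclin domains that takes up SPARC in macrophages. It was at 8.02, 7.34 and 7.42 in long-term EMT cells and at 5.34, 5.19 and 5.45 in control cells, a difference of 2.27 ± 0.19 (standard error, adjusted p = 0.00555). Its groups were well apart, and it passed whichever array was left out.

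Among the CCN genes, which encode a further family of matricellular proteins, 2 of 6 rose, 1 fell and 3 did not pass. Their median was 0.61, and at an unadjusted p under 0.05 limma had 3 higher and 1 lower. Over all probe sets 0.993% were called higher and 0.928% lower. *Ccn4* gave 7.94, 8.05 and 7.94 in long-term EMT cells and 5.55, 5.54 and 5.77 in control cells, and was 5.12-fold higher (log2 fold change 2.36, adjusted p = 0.000806). *Ccn2*, connective tissue growth factor, rose by 1.79 (adjusted p = 0.00835) and kept its call except without long-term EMT replicate 2 or control replicate 2. *Ccn5*, a member that lacks the C-terminal domain of its relatives, fell by 2.27 on the log2 scale, to 6.90 ± 0.28 in long-term EMT cells, against 9.17 ± 0.39 in control cells (SD, n = 3 each). Family members thus moved in opposite directions, each beyond the spread of its arrays.

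Of 22 measured genes for elastic fibers and other matrix network glycoproteins, 1 rose, 0 fell and 21 did not pass, with a median of -0.09 (3 higher and 3 lower at an unadjusted p under 0.05 by limma). *Fbln2*, fibulin-2, which binds fibronectin and fibrillin, was at 11.84, 11.90 and 11.96 in long-term EMT cells and at 11.09, 10.85 and 11.04 in control cells, a difference of 0.91 ± 0.09 (standard error, adjusted p = 0.00838). The call was lost without long-term EMT replicate 2 and without replicate 3.

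Of 20 receptors for these ligands, 3 rose, 1 fell and 16 did not pass, with a median of -0.11. At an unadjusted p under 0.05 by limma 5 were higher and 4 lower. Over all probe sets 0.993% were called higher and 0.928% lower. The integrin subunit *Itgb3*, which with the αv chain binds tenascin-C, fibronectin and periostin, was 7.62-fold higher, at 8.98, 8.42 and 8.12 in long-term EMT cells and 6.08, 5.48 and 5.17 in control cells (adjusted p = 0.00838). *Itga5*, the α chain of the main fibronectin receptor, was at 11.72, 11.62 and 11.71 in long-term EMT cells and 10.22, 10.08 and 10.52 in control cells, a log2 fold change of 1.41 (adjusted p = 0.00596). The groups did not overlap for either gene. *Itgb6*, whose product binds fibronectin, tenascin-C and latent TGF-β in epithelia, was at 4.29, 3.87 and 4.11 in long-term EMT cells, below background, and at 7.29, 6.88 and 6.75 in control cells. Set against the background level it was at least 5.65-fold lower (adjusted p = 0.00191). *Lrp1*, an endocytic receptor for thrombospondins, was 0.69 higher on the log2 scale (adjusted p = 0.0387), a call that was lost whichever array was left out. The urokinase receptor gene *Plaur* was chosen for its known ligand after its values were seen, and did not pass, at means of 10.61 and 10.34 in long-term EMT and control cells. The call of *Itgb3* was lost without long-term EMT replicate 2 and without control replicate 2. Without control replicate 3, 2 receptors were lower.

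**Figure D4:**
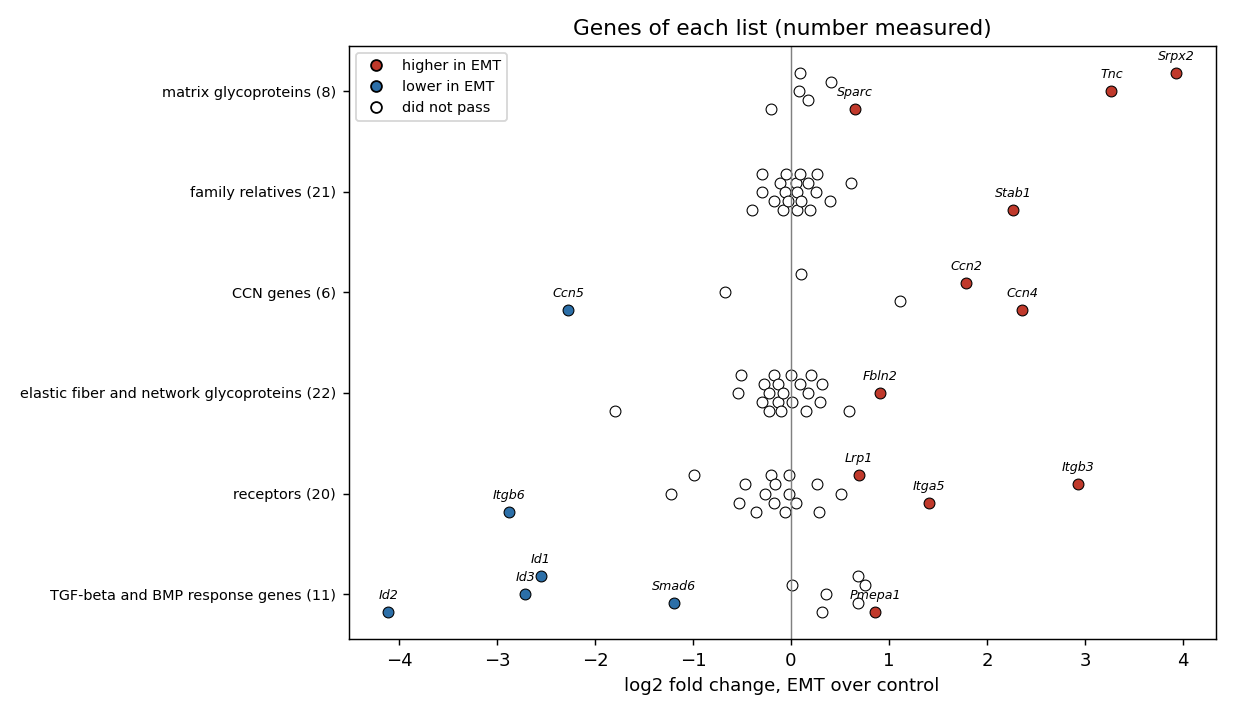
Log2 fold change in long-term EMT over control cells for the 8 matrix glycoprotein genes and for the genes of 5 related lists, with the number measured in parentheses. Red points passed higher, blue points passed lower and open points did not pass, and points are offset vertically for legibility. Most relatives and network genes lie near 0, while the integrin receptors and CCN genes hold calls in both directions.

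The treatment was also read from 11 measured genes that respond to TGF-β or BMP signals, of which 1 rose, 4 fell and 6 did not pass. Their median log2 fold change was 0.32. At an unadjusted p under 0.05 by limma 6 of the 11 were higher, and 4 were lower, the same 4 that fell. *Pmepa1*, a feedback inhibitor of TGF-β signaling, was 0.86 higher (adjusted p = 0.0234) and with 1 array left out passed in 1 of 6 fits. The BMP-responsive genes *Id1*, *Id2*, *Id3* and *Smad6* fell, with log2 fold changes of -2.55, -4.11, -2.71 and -1.19, and each passed in all of those fits. The number that rose was 3 without control replicate 1, and 0 without control replicate 2 or any 1 of the long-term EMT arrays. *Pmepa1* was named after its value was seen.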

How the data were processed

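The authors hybridised biotin-labelled cDNA made from 150 ng of RNA per sample to Affymetrix mouse gene arrays (1 colour, 6 arrays). They deposited log2 expression values for 35556 probe sets, background-corrected, quantile-normalized and summarised by RMA in Expression Console (version not given in the sources used here). RMA compresses weak signals, and the number of arrays limits the precision. No column of the table was left without a sample (0 columns).

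From the deposited values, long-term EMT minus control was fitted with limma 3.58.1 (R 4.3.3; lmFit and eBayes, no covariate), and p-values of all probe sets together were adjusted by Benjamini and Hochberg's method. Calls required adjusted p under 0.05 plus a fold above 1.5. The code was tested on simulated data, where 58 of 100 changes of 2-fold and 86 of 100 of 4-fold were called, with 5 false calls. A gene that did not pass may therefore still have changed. Of the probe sets, 21218 had 1 gene symbol, 1881 several and 12457 none; the brightest probe set stood for a gene. The 10 genes and the 9 lists (112 genes, 108 measured) were chosen with earlier results of these data known. Text names follow the members, and up to 4 called genes with the largest change per related list. *Mfap4*, *Efemp2* and *Nid2* were not analysed here, and 1 further listed gene is not reported here. Alternatives left out each array, added a replicate block, and changed the test, normalization, background level and fold.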

Additional observations from a re-analysis of the deposited data

How the results depend on the processing

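*Tnc* and *Srpx2* passed under every alternative run, and the number of the 8 genes called higher was 2 or 3 throughout, with 0 lower. *Sparc* was the call that was lost, under each left-out array, the replicate block (adjusted p = 0.0989), equal array medians, a fold above 2 and the methods' t-test after Benjamini-Hochberg adjustment. *Postn* was gained without control replicate 1. *Tgfbi* ranged from -0.15 to 0.26 over the left-out arrays and was negative without control replicate 2 alone. The median over the 8 genes ranged from 0.18 to 0.40. Over all probe sets, leaving out 1 array gave 107 to 472 higher and 98 to 482 lower. The methods' t-test gave 638 higher and 688 lower at its unadjusted threshold, and 43 higher and 26 lower after adjustment. A fold above 2 left 195 higher. The background level was 4.24 at the 90th and 5.09 at the 99th percentile of olfactory receptors, so *Tgfbi* and control values of *Srpx2* lie near it and *Thbs2* within it. Arrays sharing a replicate number deviated from their group means with r = 0.19, 0.02 and 0.25, against -0.27 to 0.14 for unlike numbers. The labels do not say whether the numbers pair the arrays, and this was not tested. The replicate block gave 256 higher and 278 lower probe sets, and not every array correlated best with its own number. The causes of these shifts were not tested.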

Other observations

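*Npnt*, which encodes the basement membrane protein nephronectin, and *Itga8*, which encodes the α chain of its integrin receptor, did not pass but had the lowest log2 fold change of the network list and the second lowest of the receptor list. *Npnt* was at 6.04, 5.77 and 5.62 in long-term EMT cells and 8.54, 7.15 and 7.12 in control cells, a log2 fold change of -1.79 (adjusted p = 0.0903 by limma). Without control replicate 1 it was -1.33, and *Npnt* then passed (adjusted p = 0.0104). *Itga8* was at 4.22, 4.14 and 4.18 in long-term EMT cells, below background, and averaged 5.40 ± 0.87 in control cells (SD, n = 3), where replicate 3 was also below it at 4.41 (adjusted p = 0.250). Both were picked after their values were seen.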
